A study of Mus musculus with 26 samples.

Results

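The genes described here are 10 members of the antioxidant program of the mouse choroid plexus (ChP), the secretory epithelium that makes cerebrospinal fluid. They were taken as listed symbols, Nfe2l2, Prdx6, Prdx1, Nqo1, Hmox1, Gclc, Gclm, Txnrd1, Srxn1 and Cat, each of which matched 1 of the 55416 genes in the count tables. All 10 passed the minimum mean of 1 CPM (a gene's counts scaled to library size) in each group, as did 13697 genes in all. In ChP of sham-operated mice, Nqo1 and Hmox1 had a 24 h rhythm that passed the test, as did 10.7% of all genes tested. Over 34 alternative analyses this call held throughout for Nqo1 and was lost in 8 for Hmox1, and from 1 to 5 members passed. In mice without the suprachiasmatic nucleus (SCN) 0 of the 10 passed, as did 0% of all genes, and the same counts held for a difference in mean level between these groups. Nqo1 was the single member called for a difference of rhythm between the groups, as were 2.12% of all genes, and this call was lost in 12 of 33 alternatives.

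NRF2, the protein made from Nfe2l2, is a transcription factor that KEAP1 normally marks for degradation. Oxidants and reactive electrophiles modify KEAP1, NRF2 then accumulates, pairs with a small MAF protein and binds antioxidant response elements near genes for glutathione synthesis, the thioredoxin cycle and the removal of quinones and heme. NRF2 is controlled largely at the level of the protein, so its mRNA is a poor gauge of its activity. The ChP is known for dense mitochondria and for detoxifying enzymes that guard the border between blood and cerebrospinal fluid.

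ChP of the 4th ventricle was collected from adult male C57Bl6J mice after sham surgery (Ctrl, n = 12) or bilateral electrolytic destruction of the SCN (SCNx, n = 12), with 1 mouse of each group every 4 h from CT0 to CT44 in constant darkness. CT0 is the time at which the lights would have come on, and CT12 the start of the subjective night. A further 2 adult male mice, at ZT7 and ZT18 of a light-dark cycle, carried FoxJ1-ERT2-Cre+/-; Bmal1fl/fl and ate tamoxifen citrate at 0.4 g per kg of diet (KO), which deletes Bmal1 in cells with an active Foxj1 promoter, such as ChP epithelium and ependyma. The KO samples were cut by laser from frozen brain and made with another library kit, and no library of this line without Cre was analysed here. Each sample is 1 mouse, a library is named by group and time (Ctrl CT0), and no time point was repeated within a group. The p-values of rhythms rest on the spread around the fitted 24 h curves, with an estimate for each gene that Ctrl and SCNx share. Scatter in SCNx therefore also enters the p-value of a rhythm in Ctrl. The p-values of levels rest on the spread over the time points of a group.

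Libraries of Ctrl and SCNx held between 38751200 and 49527700 estimated counts, and the KO libraries 17425200 and 18059200. The 10 markers of ChP epithelium summed to between 106594 and 167323 CPM in the 24 Ctrl and SCNx libraries. A pair of libraries was rich in transcripts of hepatocytes: the 13 markers summed to 2845 CPM in Ctrl CT16 and to 12593 CPM in SCNx CT0, against medians of 4.07 in Ctrl and 6.61 in SCNx. Markers of neurons reached 384 CPM in Ctrl CT4 and 616 CPM in SCNx CT32, against medians of 19.7 and 18.1, and markers of astrocytes reached 713 and 941 CPM in these libraries. Some of the results below are also given without these 4 libraries. Markers of red cells reached 6659 CPM in SCNx CT44, against an SCNx median of 540, and that library stayed in those fits. As a check of the time series, the clock gene Arntl (Bmal1) ranged from 2.01 to 39.4 CPM in Ctrl with an amplitude of 2.23 ± 0.080 on the log2 scale, Nr1d1 had an amplitude of 2.50 ± 0.20 and Dbp one of 2.04 ± 0.053 (SE, n = 12).

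RefSeq promoter windows of GRCm38.p6, from 250 bases before to 50 bases after the start of transcription, were found for 7 of the 10 genes, in 9 windows. Prdx6, Hmox1 and Gclc had no entry. The core letters of the antioxidant response element, TGACNNNGC on either strand, occurred in the windows of 5 of these 7 genes and in 14% of all 27025 genes with a window. The stricter form TGACTCAGC, of the same length with TCA in place of NNN, occurred at Prdx1 alone among the 7, and in 0.503% of all genes. Both motifs overlap, since every match of the second is also a match of the first. The matches are shown with 10 bases on each side, 5′ to 3′ on the strand of the gene, with the core in capitals, because NRF2 acts through this element.
Nfe2l2, chr2:75704885-75704913, minus strand: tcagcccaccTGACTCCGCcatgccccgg
Prdx1, chr4:116685456-116685484, plus strand: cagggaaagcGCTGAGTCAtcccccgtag
Gclm, chr3:122245413-122245441, plus strand: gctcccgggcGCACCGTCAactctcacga
Txnrd1, chr10:82859104-82859132, plus strand: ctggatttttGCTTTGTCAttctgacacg
Srxn1, chr2:152105542-152105570, plus strand: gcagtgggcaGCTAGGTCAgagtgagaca
In Prdx1, Gclm, Txnrd1 and Srxn1 the core lies on the opposite strand, so that its letters appear reversed and complemented. Counted from the start of transcription, the first base of the match was at -240 in Nfe2l2, -133 in Prdx1, -134 in Gclm, -92 in 1 of the 3 windows of Txnrd1, and 29 bases into the transcript in Srxn1. The windows of Nqo1 and Cat held no match. The E-box letters CACGTG, which the clock proteins BMAL1 and CLOCK bind, were in the windows of 0 of the 7 genes and of 8.09% of all genes. The D-box letters TTATGTAA were in 0 of the 7 and in 1.11% of all genes. These are matches of letters in a short window, and say nothing of whether a factor was bound.

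The window of Nqo1 is shown whole, all in lower case as it held none of these motifs, because Nqo1 is the member with the difference of rhythm.
Nqo1, chr8:107403156-107403455, minus strand: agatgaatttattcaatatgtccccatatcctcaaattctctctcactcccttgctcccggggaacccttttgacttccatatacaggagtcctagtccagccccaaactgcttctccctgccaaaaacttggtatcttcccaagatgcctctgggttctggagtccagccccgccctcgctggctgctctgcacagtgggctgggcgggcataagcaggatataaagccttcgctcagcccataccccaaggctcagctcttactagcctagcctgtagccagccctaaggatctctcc

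Nqo1 (ENSMUSG00000003849), a reductase that takes quinones straight to hydroquinones, followed the day in Ctrl. In the first cycle its level was 74.0 CPM at CT0, 76.2 at CT4, 72.8 at CT8, 66.1 at CT12, 51.6 at CT16 and 54.4 at CT20. In the next cycle it was 74.4 CPM at CT24, 80.6 at CT28, 71.8 at CT32, 68.4 at CT36, 57.0 at CT40 and 56.2 at CT44. The 4 libraries of the middle and late subjective night were the lowest on both days, and no library differed from its partner 24 h later by more than 0.15 on the log2 scale. The fitted curve peaked at CT5.0 ± 0.50 with an amplitude of 0.27 ± 0.036 (SE, n = 12, log2 CPM), which is 1.46-fold from trough to peak, and accounted for an R2 of 0.86. The rhythm passed edgeR's quasi-likelihood test, with an adjusted p of 0.00261.

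In SCNx, Nqo1 ran between 55.3 CPM at CT32 and 79.8 CPM at CT20, with a median of 69.9, against a median of 70.1 in Ctrl. The high and the low libraries were scattered over the clock, and the amplitude was 0.064 ± 0.059 (SE, n = 12) with an adjusted p of 0.694. The difference of the rhythms had an adjusted p of 0.0393 in edgeR, and the amplitude in SCNx minus that in Ctrl was -0.21 on the log2 scale. The lowest SCNx value lay in the library rich in neuron and astrocyte transcripts, and the lowest Ctrl value, at CT16, in the hepatocyte-rich one. The difference did not pass without Ctrl CT16 and SCNx CT0 (adjusted p = 0.0787), with a linear trend per group (0.0613), or without any 1 of CT8, CT16, CT20, CT28 or CT44 of Ctrl or CT12, CT16, CT20, CT36 or CT44 of SCNx, where the adjusted p reached 0.0883 (without Ctrl CT16). The rhythm in Ctrl passed in each of the 34 alternatives run, with adjusted p up to 0.0109.

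**Figure D1:**
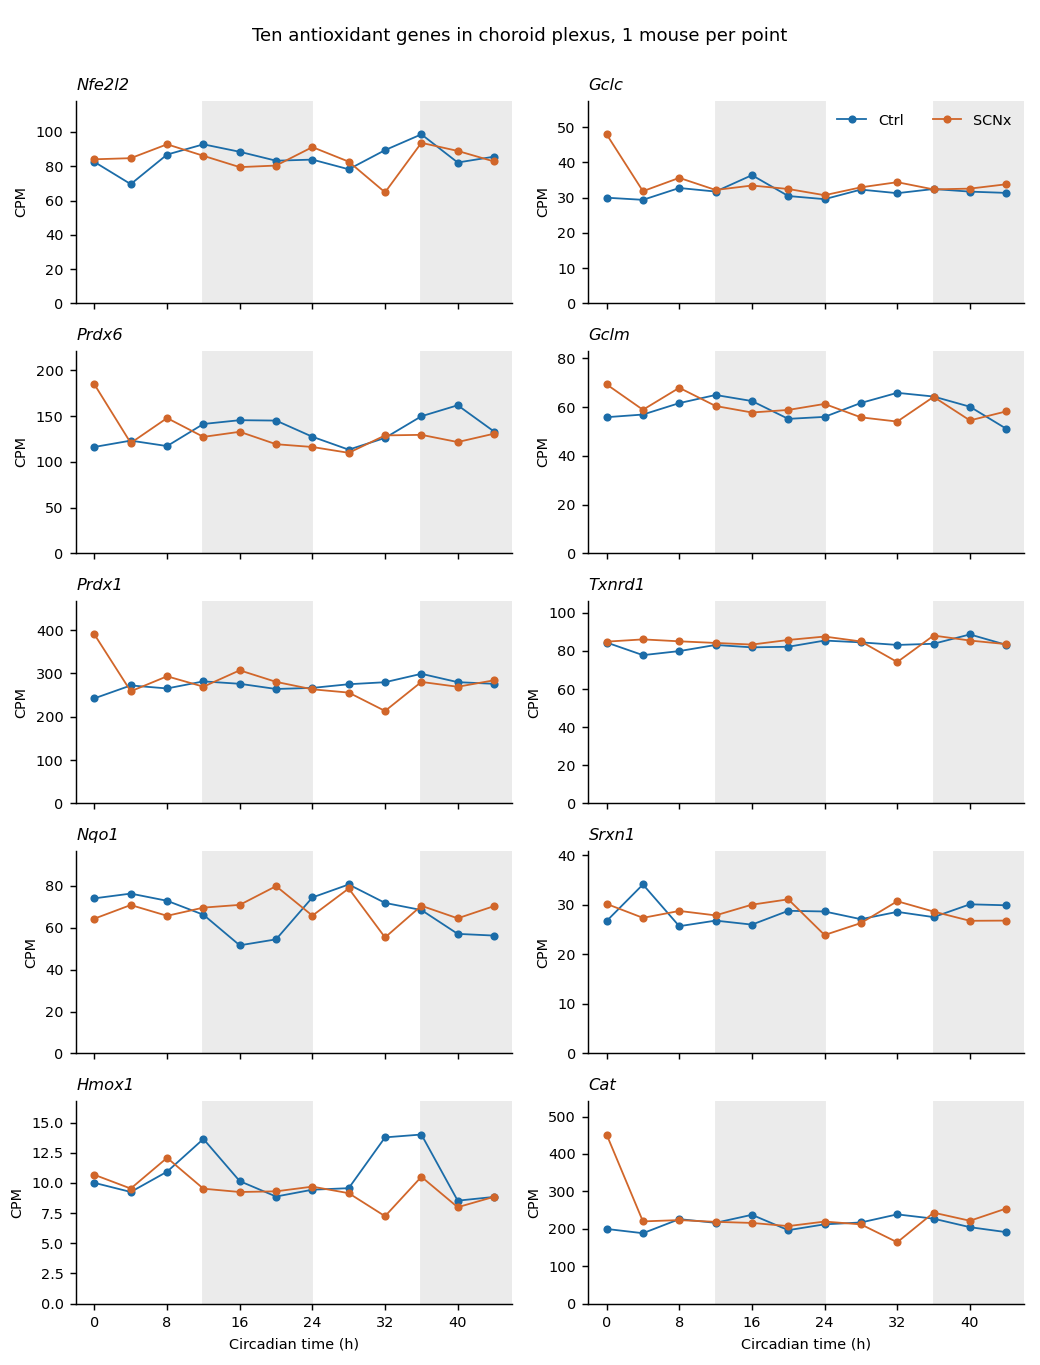
CPM of the 10 genes (y axes, from 0) against circadian time in hours (x axes) in Ctrl and SCNx, with 1 mouse per point and the subjective night shaded. Nqo1 falls in each subjective night of Ctrl, from 80.6 CPM at its highest to 51.6 at its lowest, and SCNx CT0 stands out for Cat at 452 CPM.

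Hmox1 (ENSMUSG00000005413), heme oxygenase 1, opens the heme ring to release iron, carbon monoxide and biliverdin. In Ctrl it ran from 8.53 to 14.01 CPM with a median of 9.78. The libraries CT12, CT32 and CT36, at 13.6, 13.8 and 14.01 CPM, stood above the other 9, which reached 10.9. The curve peaked at CT10.0 ± 0.98 with an amplitude of 0.28 ± 0.073 (SE, n = 12) and 1.48-fold from trough to peak (adjusted p = 0.0391, edgeR). The cycles were not alike throughout: CT8 held 10.9 CPM and CT32, 24 h later, 13.8. The call was lost without any 1 of CT12, CT20, CT24, CT32, CT36 or CT44 of Ctrl or CT12 of SCNx, and without the filter on low counts (adjusted p = 0.126).

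Hmox1 in SCNx lay between 7.24 CPM at CT32 and 12.1 CPM at CT8, with a median of 9.41. Its amplitude there was 0.052 ± 0.084 (SE, n = 12) and the adjusted p was 0.860. The test of the difference of rhythms gave an adjusted p of 0.340, so a difference between Ctrl and SCNx was not shown for Hmox1. The groups overlapped in the middle of their ranges, while 3 Ctrl libraries lay above every SCNx library and SCNx CT32 and CT40, at 7.24 and 7.99 CPM, lay below every Ctrl library.

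Gclc and Gclm code for the catalytic and the modifier subunit of glutamate-cysteine ligase, which sets the pace of glutathione synthesis. Gclm (ENSMUSG00000028124) ran from 51.2 to 65.9 CPM in Ctrl with a median of 60.9, and from 54.1 to 69.4 CPM in SCNx with a median of 58.9. In Ctrl the highest libraries were CT32, CT12 and CT36 and the lowest was CT44, and the curve peaked at CT10.2 ± 0.65 with an amplitude of 0.14 ± 0.023 (SE, n = 12). This did not pass in edgeR (adjusted p = 0.0680). It did in DESeq2 (0.0390), without Ctrl CT16 and SCNx CT0 (0.0352) and with each group fitted alone (0.0122). In SCNx the amplitude of Gclm was 0.030 ± 0.051, with an adjusted p of 0.853.

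Gclc (ENSMUSG00000032350) varied little in Ctrl, from 29.4 to 36.4 CPM with a median of 31.5. In SCNx it ran from 30.7 to 48.0 CPM with a median of 32.8. The highest value of each group was in its hepatocyte-rich library, Ctrl CT16 at 36.4 and SCNx CT0 at 48.0 CPM. The other 11 SCNx libraries did not exceed 35.6 CPM. Neither group had a rhythm that passed, with amplitudes of 0.073 ± 0.028 in Ctrl and 0.067 ± 0.072 in SCNx and adjusted p of 0.648 and 0.620.

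The next 4 genes code for a thioredoxin reductase, sulfiredoxin and peroxiredoxins. Txnrd1 (ENSMUSG00000020250), the cytosolic thioredoxin reductase that recharges thioredoxin with NADPH, had the lowest ratio of highest to lowest library of the 10, at 1.14 in Ctrl and 1.19 in SCNx. It ran from 77.8 to 88.6 CPM in Ctrl and from 74.2 to 88.1 CPM in SCNx, with medians of 83.2 and 85.0. Its amplitude was 0.027 ± 0.019 in Ctrl and 0.028 ± 0.027 in SCNx (SE, n = 12). The lowest library of each group was the one rich in neuron and astrocyte transcripts, Ctrl CT4 and SCNx CT32.

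Srxn1 (ENSMUSG00000032802), sulfiredoxin, repairs peroxiredoxins whose active cysteine has been overoxidized. It ran from 25.7 to 34.1 CPM in Ctrl, with a median of 28.0, and from 23.9 to 31.1 CPM in SCNx, with a median of 28.2. The 34.1 CPM belonged to Ctrl CT4, rich in neuron transcripts, and the other 11 Ctrl libraries reached 30.1. Amplitudes were 0.048 ± 0.048 in Ctrl and 0.046 ± 0.047 in SCNx.

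Prdx1 (ENSMUSG00000028691), a peroxiredoxin of the cytosol that uses thioredoxin, ran from 242 to 299 CPM in Ctrl, with a median of 275. In SCNx it ran from 213 to 389.9 CPM, also with a median of 275. The extremes of SCNx were its mixed libraries, CT0 at the top and CT32 at the bottom, and the other 10 lay between 256 and 307 CPM. The amplitude was 0.070 ± 0.023 in Ctrl and 0.12 ± 0.081 in SCNx, with adjusted p of 0.718 and 0.445.

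Prdx6 (ENSMUSG00000026701), which reduces peroxides of phospholipids with the help of glutathione, peaked at night in Ctrl. Its level in Ctrl ran from 113 CPM at CT28 to 162 CPM at CT40, with a median of 130.4. The 6 libraries at CT12, CT16, CT20, CT36, CT40 and CT44 ranged from 133 to 162 CPM and the other 6 from 113 to 128, so that night and day did not overlap. The curve peaked at CT15.6 ± 0.59 with an amplitude of 0.20 ± 0.031 (SE, n = 12). In edgeR, where both groups share an estimate of the spread, this rhythm did not pass (adjusted p = 0.104). It passed without SCNx CT0 (0.00350) and with each group fitted alone (0.00394). The residual SD around the curve of Prdx6 was 0.076 in Ctrl and 0.21 in SCNx (log2 CPM).

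In SCNx, Prdx6 was highest in CT0 at 185 CPM, and the other 11 libraries lay between 109.9 and 148 CPM. Its amplitude in SCNx was 0.015 ± 0.087 (SE, n = 12), and the difference of rhythms had an adjusted p of 0.367. In the edgeR fit the SCNx amplitude was 0.034 with all libraries and 0.095, with a peak at CT11.9, without Ctrl CT16 and SCNx CT0 (adjusted p = 0.373). Near-identical copies of these genes took few counts: Prdx6b had at most 2 and the copy named Prdx1-ps at most 1 in any of the 24 libraries. In Ctrl the peak of Prdx6 at CT15.6 ± 0.59 stood apart from that of Nqo1 at CT5.0 ± 0.50, without a test of the difference.

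Cat (ENSMUSG00000027187), catalase, breaks down hydrogen peroxide in peroxisomes. It ran from 188 to 238 CPM in Ctrl, with a median of 214. In SCNx it ran from 164 to 452 CPM, with a median of 219. The 452 CPM of SCNx CT0 was 2.06 times the median of the other SCNx libraries, which did not exceed 254 CPM. Its amplitude was 0.11 ± 0.039 in Ctrl and 0.21 ± 0.14 in SCNx (SE, n = 12), with adjusted p of 0.760 and 0.370, and without all 4 mixed libraries the rhythm in Ctrl had an adjusted p of 0.0335 and a peak at CT8.04. In the edgeR fit the SCNx amplitude of Cat was 0.24 with all libraries and 0.079 without SCNx CT0, where SCNx minus Ctrl was -0.029.

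Nfe2l2 (ENSMUSG00000015839) itself ran from 69.6 to 98.6 CPM in Ctrl and from 64.8 to 93.6 CPM in SCNx, with medians of 84.7 and 84.4. The lowest library of each group was again the one rich in neurons and astrocytes, Ctrl CT4 and SCNx CT32. Its amplitude was 0.12 ± 0.040 in Ctrl, with a peak at CT13.4 ± 1.3, and 0.023 ± 0.063 in SCNx (SE, n = 12). Neither passed, with adjusted p of 0.274 and 0.966, and Keap1, its inhibitor, averaged 47.6 ± 1.76 CPM in the Ctrl libraries and 46.7 ± 3.39 CPM after the lesion (SD, n = 12).

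Counted together, 2 of the 10 genes were rhythmic in Ctrl at an adjusted p under 0.05, against 10.7% of all genes tested, and 4 at an unadjusted p under 0.05, against 24.8%. In SCNx 0 of 10 passed, as did 0% of all genes, and 0 of 10 had an unadjusted p under 0.05, against 14.8%. DESeq2 and limma-trend also called 0 of the 10 in SCNx, and over all genes 432 and 0. The rhythm differed for 1 of 10 genes, against 2.12% of all genes, and the same 1 had an unadjusted p under 0.05, against 15.1%. The median amplitude of the 10 was 0.11 in Ctrl and 0.052 in SCNx, and over all genes it was 0.11 and 0.091. Without all 4 mixed libraries 5 of the 10 were rhythmic in Ctrl (Prdx6, Nqo1, Hmox1, Gclm and Cat), among 2901 of 13374 genes tested. Without SCNx CT0 alone 4 were rhythmic in Ctrl (Prdx6, Nqo1, Hmox1 and Gclm), among 1599 genes.

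**Figure D2:**
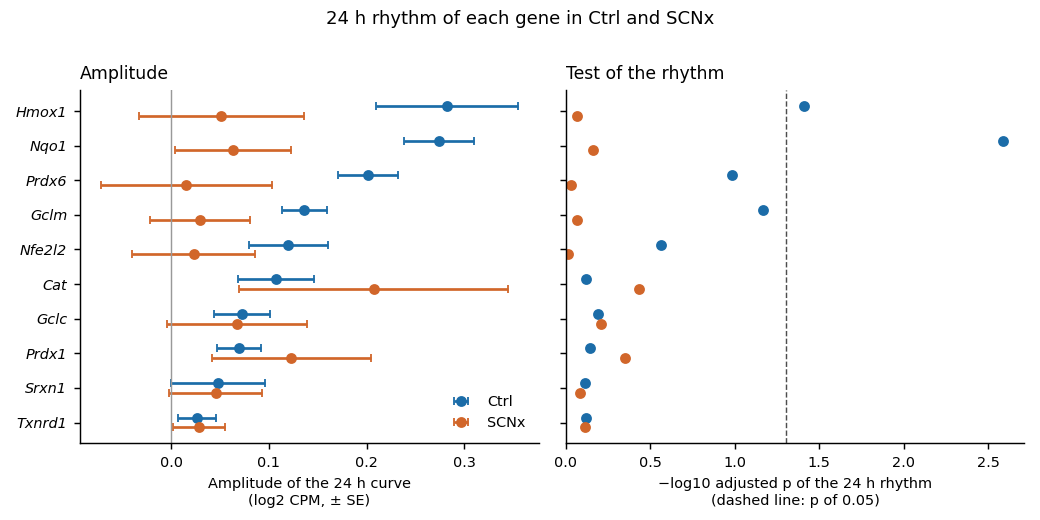
Left, amplitude of the 24 h curve of each gene with its SE, in log2 CPM, in Ctrl and SCNx; right, −log10 of the adjusted p of the rhythm, with a dashed line at 0.05. Hmox1 and Nqo1 in Ctrl lie beyond the line, with amplitudes of 0.28 and 0.27, and no SCNx point does.

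The mean level was compared with the time points of each group pooled. Of the 10 genes, 0 differed between SCNx and Ctrl at an adjusted p under 0.05 in edgeR, as did 0% of all genes, and 0 had an unadjusted p under 0.05, against 9.37%. DESeq2 and limma-trend called 0 of the 10 as well, and over all genes 7 and 0. The log2 difference of SCNx from Ctrl ran from -0.16 ± 0.092 for Hmox1 to 0.16 ± 0.11 for Cat (SE), with a median of 0.016 for the 10 and of 0.011 for all genes. The 95% interval of the difference reached from -21.5% to 2.26% for Hmox1, from -7.18% to 13.8% for Nqo1 and from -1.88% to 5.001% for Txnrd1. For Nfe2l2 it reached from -8.07% to 6.73%.

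The values of Cat and Gclc in SCNx moved with SCNx CT0. With all libraries, Cat was higher in SCNx by 0.16 ± 0.11 on the log2 scale, with an interval from -4.17% to 30.1%, and Gclc by 0.11 ± 0.055 (unadjusted p = 0.0523, adjusted p = 0.542). Without SCNx CT0 the difference was 0.035 for Cat and 0.059 for Gclc. Without both hepatocyte-rich libraries it was 0.051 ± 0.056 for Cat, and for Gclc 0.079 ± 0.027 on the log2 scale, with an interval from 0.023 to 0.14 (unadjusted p = 0.00819, adjusted p = 0.334). In SCNx CT0, 12 of the 13 hepatocyte markers were at their highest of the 24 libraries, and the sum of the list in the other SCNx libraries did not exceed 16.6 CPM. There Cat stood at 2.06, Gclc at 1.47, Prdx6 at 1.45, Prdx1 at 1.45, Gclm at 1.18 and Hmox1 at 1.15 times the median of the other SCNx libraries. Srxn1 stood at 1.08, Txnrd1 at 0.998, Nfe2l2 at 0.992 and Nqo1 at 0.915 times it. In Ctrl CT16, where the marker sum was lower, Cat stood at 1.12 and Gclc at 1.16 times the median of the other Ctrl libraries. In bulk tissue, fewer cells of a type and less RNA per cell cannot be told apart, and the part of liver transcripts in these values was not tested.

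**Figure D3:**
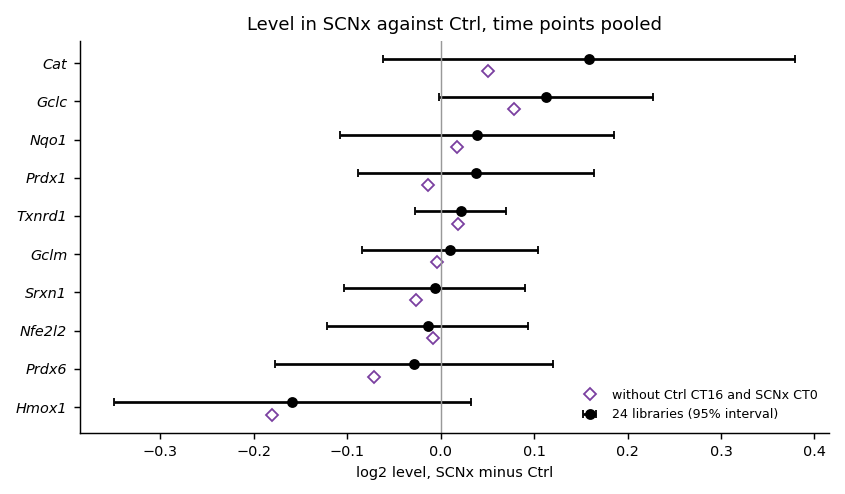
log2 difference of level, SCNx minus Ctrl, for each gene, as filled points with 95% intervals from all 24 libraries and open diamonds without Ctrl CT16 and SCNx CT0. All 10 intervals from the 24 libraries include 0, and the value of Cat goes from 0.16 to 0.051.

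**Figure D4:**
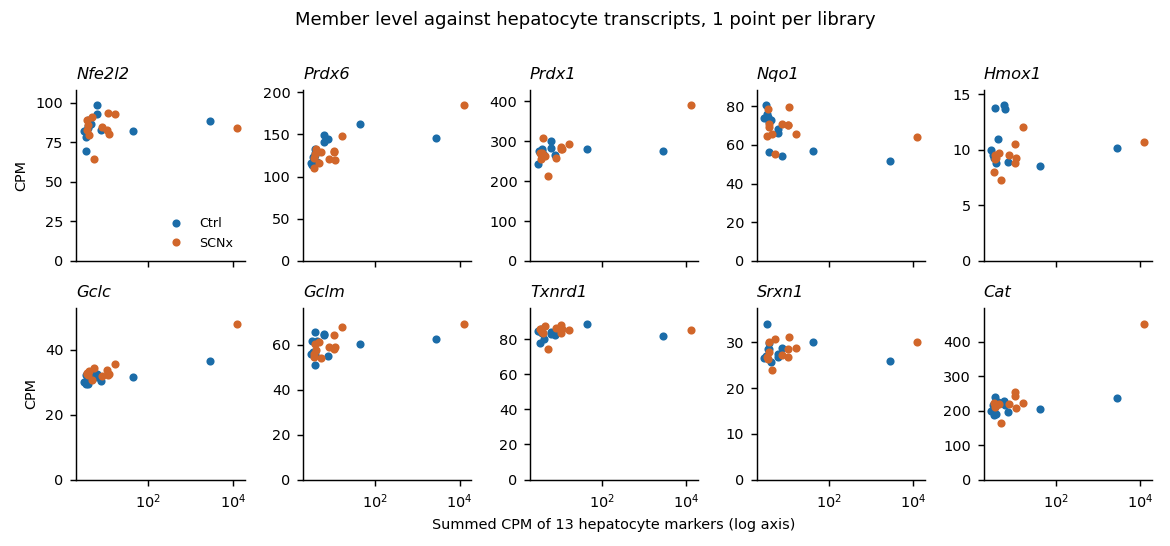
CPM of each gene (y axes, from 0) against the summed CPM of the 13 hepatocyte markers (x axes, log scale), with 1 point per library in Ctrl and SCNx. The library farthest to the right is SCNx CT0, at 12593 CPM of markers and 452 CPM of Cat, and the next is Ctrl CT16, at 2845 CPM of markers.

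SCNx CT32 was the lowest of the 12 SCNx libraries for Nfe2l2, Prdx1, Nqo1, Hmox1, Gclm, Txnrd1 and Cat, between 0.746 times the median of the other SCNx libraries for Cat and 0.918 times for Gclm. Srxn1 stood at 1.1, Gclc at 1.06 and Prdx6 at 1.01 times it. All 5 oligodendrocyte markers, 4 of 5 astrocyte markers and 9 of 13 neuron markers had their highest value of the 24 libraries there, and the epithelial sum there, 106594 CPM, was the lowest of the 24. The part of this mixture in the low values was not tested.

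Of the 108 other genes of the pathway listed here, 96 were tested, and 7 had a rhythm in Ctrl at an adjusted p under 0.05, beside 10.7% of all genes. In SCNx 0 had one, beside 0% of all genes, 0 had a difference of rhythm, beside 2.12%, and 0 a difference of level, beside 0%. Slc3a2, the heavy chain that carries the cystine transporter to the membrane, peaked at CT7.80 with an amplitude of 0.34 ± 0.061 (adjusted p = 0.00319). Txnrd3, a thioredoxin-glutathione reductase, peaked at CT8.33 with 0.36 ± 0.047 (0.00383). Abcc1 and Abcc4, pumps that export conjugates and drugs, peaked at CT7.94 with 0.26 ± 0.058 (0.00789) and at CT8.42 with 0.18 ± 0.042 (0.0444). Maff, a small MAF partner of NRF2, peaked at CT9.60 with 0.66 ± 0.18 (0.0456), at a mean of 1.29 CPM. The call in Ctrl was lost in 18 of 33 alternatives for Maff and in 17 of 34 for Abcc4. It held in all 34 for Slc3a2, Syvn1, Txnrd3 and Abcc1. Syvn1, the ubiquitin ligase of the endoplasmic reticulum that can also target NRF2, peaked at CT19.4 with 0.34 ± 0.044 (0.00365). In SCNx its amplitude was 0.23 ± 0.083, with a peak at CT19.1 and an adjusted p of 0.171 in edgeR. The difference of rhythms of Syvn1 had an adjusted p of 0.738, and its rhythm in SCNx passed in 2 of 34 alternatives. Abcc2, an export pump, passed as well (0.0310), at a mean of 1.16 CPM, a median of 0.024 CPM and a highest Ctrl library of 13.4 CPM. It fell below the minimum of 1 CPM without Ctrl CT16, and its call was lost in 5 of 29 alternatives. A difference of rhythm passed in 3 of 33 alternatives for Abcc1, 1 of 33 for Txnrd3 and 3 of 28 for Abcc2. It passed in 0 for Slc3a2, Syvn1, Abcc4 and Maff.

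The share of all genes tested that were rhythmic in Ctrl was 10.7%. By list, 2 of 13 NRF2 regulators and partners, 0 of 4 other peroxiredoxins and 1 of 12 genes of the thioredoxin system were rhythmic. So were 3 of 15 of drug and quinone metabolism (Abcc1, Abcc2 and Abcc4) and 1 of 14 of glutathione synthesis and peroxidases. No rhythm in Ctrl was called among the 17 glutathione S-transferases, 8 genes of NADPH supply and 3 superoxide dismutases that were tested. The same held for the 5 genes of heme breakdown and ferritin and the 5 of sulfur repair. The median amplitude over the 96 was 0.11 in Ctrl and 0.10 in SCNx, and the median level difference 0.0030. The largest level difference in each list was that of Bach2 (0.35 ± 0.18), Prdx4 (-0.098 ± 0.049), Txnip (0.14 ± 0.10), Slc7a11 (0.42 ± 0.31), Gsta3 (2.66 ± 0.88), Tkt (-0.061 ± 0.061), Sod3 (-0.061 ± 0.081), Ftl1 (0.13 ± 0.11), Abcc3 (1.27 ± 0.63) and Msra (0.18 ± 0.14), and the lowest adjusted p among them was 0.410. Without SCNx CT0 the difference of Gsta3 was -0.46 and that of Abcc3 -0.37, and without SCNx CT32 that of Slc7a11 was -0.051. Ftl1 went to 0.017 and Msra to -0.0085 without SCNx CT0. Without SCNx CT32 Bach2 went to 0.19, Sod3 to -0.015 and Tkt to -0.032. Sod3 went to -0.11 without SCNx CT36, and Tkt to -0.038 without Ctrl CT32.

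The genes most like each member were sought by Pearson's r of log2 CPM over the 24 libraries, among 13696 others, as a description, since all points share the mixed libraries. For Nfe2l2 the 5 highest were Ctdspl (0.85), Usp2 (0.84), Dlg3 (0.83), Clic6 (0.83) and Actn1 (0.82). Among the members, Hmox1 came nearest to Nfe2l2, at rank 201 with an r of 0.67, then Txnrd1 at rank 368 with 0.63. This order turned over the 22 libraries other than Ctrl CT16 and SCNx CT0, where Cat came first at rank 160 with 0.72 and Hmox1 next at rank 316 with 0.68. Over all 24, Nqo1 stood at rank 7149 with -0.021, and Srxn1 at rank 12696 with -0.56. Over the 22 these were rank 6473 with 0.032 and rank 12558 with -0.57. Both sets held Ctrl CT4 and SCNx CT32, where Nfe2l2 was the lowest of its group and Srxn1 ranked 1 and 2.

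For Nqo1 the 3 highest were Dipk1a (0.86), Lgals3 (0.85) and Ccdc60 (0.85), and Prdx6 was near the other end, at rank 13623 with an r of -0.58. For Hmox1 they were Cyp4f16 (0.89), Erf (0.87) and Sqstm1 (0.86), the last an autophagy receptor that binds KEAP1. For Gclm they were D230025D16Rik (0.90), Pm20d1 (0.83) and Slc25a10 (0.83), with Hmox1 at rank 39 and an r of 0.76. For Txnrd1 they were Gtf2i (0.84), Gbe1 (0.82) and Apeh (0.81), and for Srxn1 Rnf187 (0.80), Ctxn1 (0.77) and Ensa (0.76).

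For the members high in SCNx CT0, the order changed without the 2 hepatocyte-rich libraries. Over all 24, the highest were Hsd17b4 (0.95), Ephx2 (0.95) and Dpyd (0.94) for Cat, Hsd17b10 (0.95), Adh5 (0.95) and Esd (0.94) for Prdx1, Shmt1 (0.92), Plin2 (0.92) and Adk (0.91) for Gclc, and 1600014C10Rik (0.83), Sult1a1 (0.82) and Gstt1 (0.81) for Prdx6. Over the other 22, the ranks of these genes were 8, 78 and 88 for Cat, 2, 15 and 36 for Prdx1, 36, 125 and 124 for Gclc, and 43, 71 and 32 for Prdx6, each in the order just given. The r of Cat with Gclc went from 0.80 to 0.19, that of Cat with Prdx1 from 0.84 to 0.63, and that of Cat with Nfe2l2 from 0.37 to 0.72. That of Hmox1 with Gclm was 0.76 over all 24 and 0.80 over 22. The 22 libraries kept Ctrl CT4 and SCNx CT32, where Cat and Nfe2l2 were each the lowest of their group. The part of these libraries in the r of Cat with Nfe2l2 was not tested.

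In the 2 KO libraries all 10 genes lay below every Ctrl and SCNx library in CPM of the library total, as did 37.4% of all genes tested, while 0 of the 10 lay above them, as did 10.1% of genes. Prdx1 stood at 139 CPM at ZT7 and 84.2 CPM at ZT18, where the lowest of the others was 229. Cat stood at 109 and 117 CPM, against a lowest value of 176, Prdx6 at 68.5 and 87.7 CPM, against 109, and Nqo1 at 37.4 and 30.4 CPM, against 49.6. Hmox1 stood at 4.13 and 4.10 CPM, against 7.76 among the others. The gap was smaller for Nfe2l2, at 65.02 and 67.4 CPM against 68.6, and for Gclc, at 24.8 and 26.9 CPM against 28.97.

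The mean of the KO libraries over the mean of Ctrl ran from 0.389 for Hmox1 and 0.41 for Prdx1 to 0.779 for Nfe2l2 and 0.821 for Gclc. The median log2 difference from Ctrl was -0.71 for the 10 and -0.24 for all genes. With TMM scaling over all 26 libraries the number below every other library was 6 of 10 (Prdx6, Prdx1, Nqo1, Hmox1, Gclm and Cat), beside 24.8% of all genes, and Nfe2l2, at 79.4 and 76.9 CPM, Gclc, Txnrd1 and Srxn1 lay within the range of the others in at least 1 KO library. No test was run for KO. The KO mice were older and kept at another site, and the paper gives a lower RNA integrity for their frozen samples. Sham surgery is described for Ctrl only. The genotype, the tamoxifen diet, age, site, surgery, the light cycle, RNA integrity, the laser capture and the library kit cannot be told apart.

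The KO libraries also differed in their cells, by marker sums that are TMM-scaled in Ctrl and SCNx and CPM of the library total in KO. Epithelial markers summed to 86752 CPM at ZT7 and 82399 CPM at ZT18, below all 24 others, and astrocyte markers to 784 and 929 CPM, above the median of 55.6 in Ctrl. Neuron markers summed to 318 and 426 CPM and oligodendrocyte markers to 307 and 446 CPM, against medians of 19.7 and 74.4 in Ctrl. Hepatocyte markers were low, at 5.22 and 3.82 CPM, with Fgg, Cps1 and Mup3 at 0. Arntl itself was at 10.6 and 9.36 CPM in KO, within the range of Ctrl, and a sum over the whole gene does not check the loss of the floxed part. The part of the cell mixture in the low values of the 10 genes was not tested.

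Between the KO libraries, ZT18 was lower than ZT7 for Nqo1 by a log2 difference of -0.30 and higher for Prdx6 by 0.36. The fitted Ctrl curves at 18 h against 7 h gave -0.50 ± 0.072 for Nqo1 and 0.29 ± 0.061 for Prdx6 (SE), and the SCNx curves 0.11 ± 0.12 and 0.0032 ± 0.17. For Hmox1 the values were -0.012 in KO, -0.34 ± 0.14 in Ctrl and -0.087 ± 0.17 in SCNx. Prdx1 differed by -0.73 and Txnrd1 by 0.50 in KO, against -0.013 ± 0.045 and 0.052 ± 0.038 in Ctrl. The median absolute difference between the KO libraries was 0.22 for the 10 and 0.23 for all genes.

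**Figure D5:**
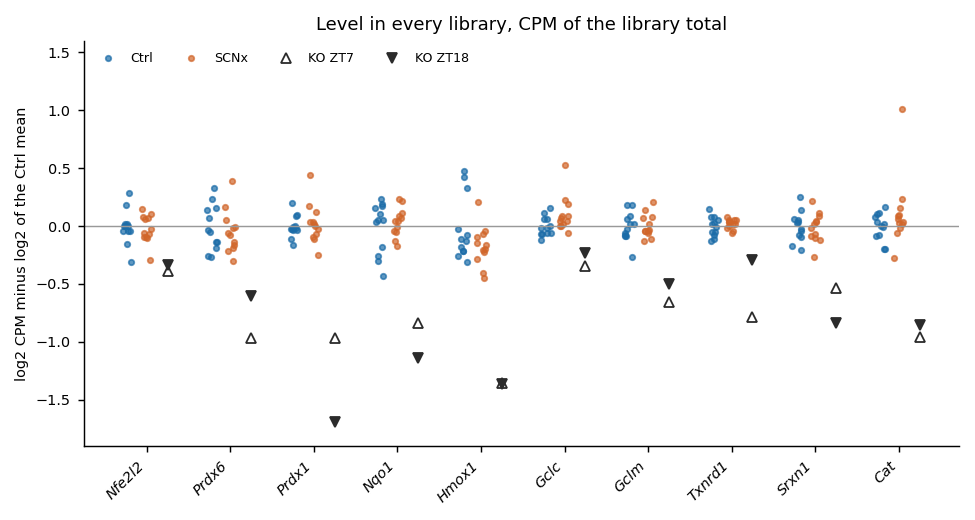
log2 of each library's CPM of the library total minus log2 of the Ctrl mean (y axis) for the 10 genes (x axis), with Ctrl and SCNx libraries as dots and the KO libraries as triangles. Both KO triangles lie below every dot for each gene, farthest for Prdx1 at ZT18 (84.2 CPM).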

How the data were processed

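Gene-level values were the estimated counts of Salmon 1.9.0 deposited by the authors for 24 Ctrl and SCNx libraries and, in a table of its own, for 2 KO libraries, on the mouse build GRCm39; STAR, cutadapt 3.4, SAMtools 1.16.1 and StringTie 2.2.1 are also named per the labels. Counts were rounded. Genes with a mean of at least 1 CPM in each group were kept, scaled by TMM and fitted over all 24 libraries in edgeR 4.0.16 (R 4.3.3) with a mean, cosine and sine of 24 h for each group. Quasi-likelihood F tests asked for a rhythm in each group and a difference of rhythm, and a fit of group alone for a difference of level, with Benjamini-Hochberg adjustment over 13697 genes. CPM of Ctrl and SCNx are TMM-scaled, except where values of a gene stand beside KO. Marker sums of Ctrl and SCNx are TMM-scaled throughout, and those of KO are CPM of the library total. Amplitudes and peaks with SE came from least squares on log2 CPM with a prior count of 1. KO libraries, with 1 mouse per time and another kit, were compared without a test, as log2(CPM + 1) where a median is given. Alternatives used DESeq2 1.42.0, limma 3.58.1, other filters and fewer libraries. Scripts were tested on simulated data, in which 200 of 13697 genes were changed. Of these, a rhythm in Ctrl was recovered for 5% at a log2 amplitude of 0.15 and 41.5% at 0.3. In SCNx it was 50.5% at 0.3. A rhythm of 0.3 in 1 group was called as a difference for 10% (Ctrl) and 24% (SCNx). A level difference was recovered for 26% at 0.2 and 75.5% at 0.5. Failing to pass therefore does not show that a rhythm or difference of this size was absent. The genes named were the 10 members, the pathway genes that passed, the largest level difference in each list, the 5 genes of highest r for Nfe2l2 and the 3 highest for each other member. Members and lists were chosen with earlier results of these data known. Library totals and ranges are in the report, where intervals of level cover the spread between mice and between time points together.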

Additional observations from a re-analysis of the deposited data

Results flagged for a closer look

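The 24 h rhythm of Nqo1 differed between Ctrl and SCNx in the test of the difference itself, with an adjusted p of 0.0393 in edgeR. The amplitude was 0.27 ± 0.036 in Ctrl and 0.064 ± 0.059 in SCNx (SE, n = 12, log2 CPM). The adjusted p was 0.00381 in DESeq2 and 0.0399 in limma-trend, and over all alternatives it ranged from 0.00381 to 0.0883. Nqo1 was at its lowest of Ctrl in CT16, the hepatocyte-rich library, and without that library the difference of amplitude, SCNx minus Ctrl, was -0.19 (adjusted p = 0.0883), against -0.21 with it.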

How the results depend on the processing

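Depth was similar across Ctrl and SCNx, and 1 mouse per time point limits every rhythm. Replicate numbers only name time points and mark no shared animal. A fit of level with circadian time as a block called 0 members. The alternatives with TMM over 26 libraries and of likeness over 22 libraries were chosen after seeing the data. The cause of the changes was not tested. Of the 10 members, 2 were rhythmic in Ctrl, 1 without a filter on low counts, 4 with a separate fit per group, 4 without Ctrl CT16 and SCNx CT0, 5 without the 4 mixed libraries, and from 1 to 4 when single libraries were left out. Over all genes the main fit called 1459 of 13697, the fit without that filter 1116 and the separate fit 1954. Leaving out Ctrl CT16 and SCNx CT0 gave 1669 of 13591 genes tested, and leaving out the 4 mixed libraries 2901 of 13374. The difference of rhythm was called for 1 member, for 0 with a linear trend or without Ctrl CT16 and SCNx CT0, and for 0 to 1 when single libraries were left out. Members called in SCNx or for level stayed at 0 in every alternative. All 10 lay below the other libraries in KO, and 6 with TMM over 26 libraries. The log2 level difference, SCNx minus Ctrl, turned sign for some genes, none of them called: Gclm was at -0.0011 without the filter on low counts and, without Ctrl CT16 and SCNx CT0, at -0.0039, where Prdx1 was at -0.013. Srxn1 was at 0.0055 without Ctrl CT4 and SCNx CT32. Gsta3 was at -0.074 in DESeq2, -0.080 without Ctrl CT16 and SCNx CT0, and -0.076 without the 4 mixed libraries. When single libraries were left out, the difference ranged from -0.040 to 0.012 for Nfe2l2, from -0.015 to 0.065 for Prdx1, from -0.010 to 0.024 for Gclm, from -0.022 to 0.019 for Srxn1, from -0.051 to 0.58 for Slc7a11, from -0.46 to 3.04 for Gsta3, from -0.37 to 1.37 for Abcc3 and from -0.0085 to 0.22 for Msra. Over all genes, rhythmic in Ctrl were 1459, 2223 without Ctrl CT4 and SCNx CT32, 2901 without the 4 mixed libraries and 918 to 2249 when single libraries were left out. Rhythmic in SCNx were 0, 432 in DESeq2 and 1384 without the filter. The rhythm differed for 291, for 589 in DESeq2, 654 without the filter, 504 without Ctrl CT4 and SCNx CT32, 640 without the 4 mixed libraries and 163 to 466 when single libraries were left out. With a linear trend it differed for 341, and without Ctrl CT16 and SCNx CT0 for 214. The level differed for 0, and for 7 in DESeq2.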
